A study of Mus musculus with 6 samples.

Results

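Chemokines are small secreted proteins that guide migrating leukocytes, and their receptors are G-protein-coupled receptors on the responding cells. The genes described here are those whose symbol in the deposited count tables follows the chemokine or chemokine receptor nomenclature and which had at least 10 reads summed over the 6 libraries. The nomenclature was matched by 62 of the 38926 symbols listed, and 51 of these reached the minimum. They comprised 31 ligand genes (19 of the CC class, 10 of the CXC class, Xcl1 and Cx3cl1), 17 signalling receptor genes and 3 atypical receptor genes (Ackr2, Ackr3 and Ackr4). The 11 symbols below the minimum were Ccl19-ps1, Ccl19-ps3, Ccl20, Ccl21b, Ccl21c, Ccl27b and Cxcl15 with 0 reads, Ccl26, Cxcl3 and Cxcl17 with 1 read each, and Ccr8 with 6 reads. The genes nearest above the minimum were Cxcr1 with 11 reads, Ccr4 with 12, Cxcl13 with 14 and Cxcl2 with 16.

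The tissue was dorsal root ganglion of lumbar levels 3, 4 and 5 from wild type female C57BL/6 mice aged 8 to 10 weeks, taken on the side of the treated paws. Vincristine mice had received a cumulative 40 µg of vincristine by intraplantar injection, a vinca alkaloid that binds tubulin and is used in chemotherapy (10 µg in the table names, a difference that the labels do not explain), and vehicle mice had received vehicle. Each group had 3 samples, and each sample was a pool of ganglia from 4 animals, so the spread between samples is a spread between pools. The comparison of vincristine with vehicle addresses which transcripts of the ganglia differ in this model of chemotherapy-induced neuropathy.

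By background, CC chemokines such as CCL2 mainly attract monocytes, macrophages and lymphocytes, several CXC chemokines attract neutrophils through CXCR2, and CXCL9 and CXCL10 attract T and NK cells through CXCR3. CX3CL1 (fractalkine) is made as a membrane-bound protein by neurons and other cells, and its receptor CX3CR1 marks macrophages and microglia. In dorsal root ganglia after nerve injury, CCL2 and CX3CL1 signalling has been studied for its part in macrophage recruitment and pain. Atypical receptors bind chemokines without the usual G-protein signal and take them up.

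Libraries held 12374331 to 26346304 reads in genes in vincristine and 17967934 to 19917055 in vehicle, and vincristine replicate 1 had the fewest reads, the highest share of reads without a gene feature (24.8%, against 14.8% to 17.03% in the other libraries) and stood apart on the first principal component (56.4% of the variance). The 16 defining markers of sensory neurons were all detected, with a summed level of 2741, 6253 and 7535 CPM (reads scaled to the library's total) in vincristine replicates 1, 2 and 3, against 6000, 7775 and 7480 CPM in vehicle replicates 1, 2 and 3. Their median log2 fold change was -0.45, against -0.0033 over all tested genes. In 5 of the 16 every vincristine pool lay below every vehicle pool (9.51% of all genes tested). The part of neuron content in the values below was not tested. Erythroid markers were higher in vincristine, with 10 of 11 tested rising by DESeq2 (2.44% of all genes did). Their sums were 3230, 1635 and 1803 CPM in vincristine pools, against 893.5, 834 and 907 CPM in vehicle pools. The part of erythroid markers in the values below was not tested. Marker lists of mast cells and eosinophils, endothelium, fibroblasts and mural cells, bone marrow stroma, satellite glia, Schwann cells, skeletal muscle and spinal cord had 0 genes called by edgeR or DESeq2, and before adjustment edgeR put 4 higher and 4 lower at p under 0.05, counting the neurons' 1 lower marker (the spinal cord marker Mnx1 was at 0). Per-pool values below are CPM, scaled by TMM factors, in the order of replicates 1, 2 and 3. In bulk tissue, a change in the number of cells of a type and a change in RNA per cell cannot be told apart.

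Among the chemokine and receptor genes with enough reads to be tested, more were higher than lower in vincristine ganglia. Of these tested genes, the neutrophil and monocyte receptor genes Cxcr2 and Ccr1 had the largest increases. The lymphocyte receptor gene Cxcr5 had the largest decrease. By edgeR's quasi-likelihood test, 0 of the 39 genes with enough reads to be tested passed an adjusted p of 0.05. Over all 16706 genes tested, 0.359% passed, 0.293% in the higher and 0.0658% in the lower direction. At an unadjusted p under 0.05, 14 of the 39 were higher in vincristine (8.10% of all genes tested were) and 1 was lower (3.27% of all). DESeq2, which made more calls over the whole table, called 6 of the 48 it gave an adjusted p (2.84% of all), 5 as higher (2.44% of all) and 1 as lower (0.402% of all). The 5 were Cxcr2, Ccr1, Cxcl14, Ccl2 and Cx3cr1, and the 1 was Cxcr5. In 14 of the 39 every vincristine pool lay above every vehicle pool (11.5% of all genes tested), and in Ccl27a and Cxcr5 every vincristine pool lay below (9.51% of all).

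The median log2 fold change of the 39 tested genes was 0.56, against -0.0033 over all tested genes, and 28 of the 39 were positive (49.3% of all genes were). These 39 had passed a filter that a gene can pass through 1 group alone, so the counts describe them and do not stand for all 51. Without vincristine replicate 1 the median of the same 39 was 0.30, against -0.0005 over all genes, and 25 of 39 were positive. Leaving out that pool also moved 3 genes past the threshold of edgeR, namely Ccr1, Cxcr2 and Cxcr5, described below. Calls rose over the whole table as well, with 346 of 16887 genes passing without that pool, against 60 of 16706 with all libraries. The summed level of all 51 genes was 801.5, 479.0 and 489.1 CPM in vincristine pools, against 448.3, 339.0 and 377.6 CPM in vehicle pools.

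**Figure D1:**
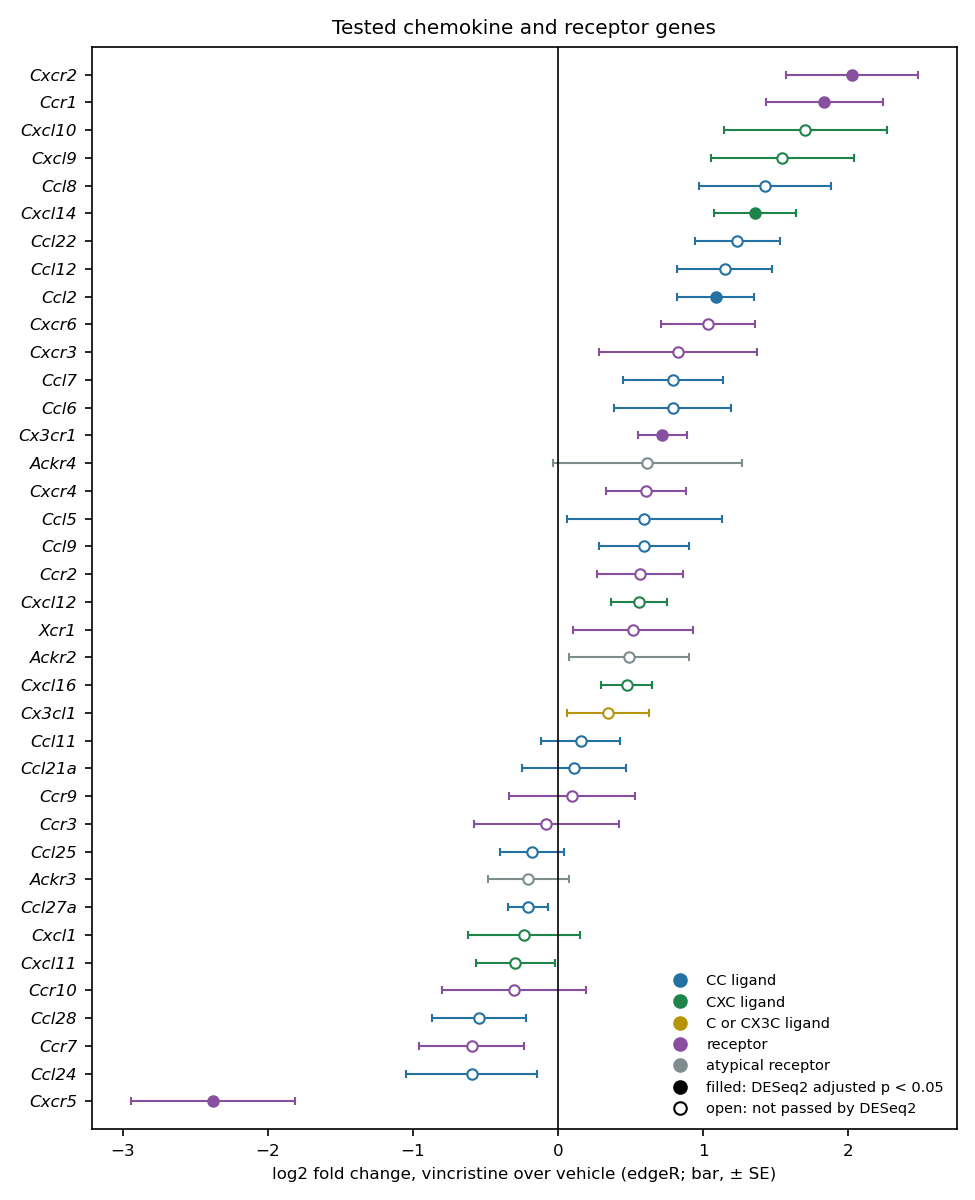
Log2 fold change of vincristine over vehicle from edgeR, with its SE, for 38 of the 39 tested genes, coloured by class; filled points passed DESeq2 at an adjusted p under 0.05. Most points lie right of 0, from -2.38 for Cxcr5 to 2.02 for Cxcr2.

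Among the tested genes, the neutrophil receptor gene had the highest log2 fold change. Cxcr2, the receptor through which neutrophils follow ELR-type CXC chemokines, was at 57.5, 22.1 and 22.2 CPM in vincristine pools, against 11.5, 5.32 and 8.10 CPM in vehicle pools. The lowest vincristine pool was thus above the highest vehicle pool, and vincristine replicate 1 was the highest of the 6. Its log2 fold change was 2.02 ± 0.46 (SE), it rose by DESeq2 (adjusted p = 0.000343) and did not pass edgeR (adjusted p = 0.177). Without vincristine replicate 1 the edgeR value was 1.42 ± 0.26 with an adjusted p of 0.0451. Ccr1, a receptor of CCL3, CCL5, CCL6 and CCL9 on neutrophils and monocytes, was at 40.0, 15.4 and 15.1 CPM in vincristine pools, against 7.56, 5.68 and 6.35 CPM in vehicle pools. The groups did not overlap, and replicates 2 and 3 of vincristine were close to each other. Ccr1 had a log2 fold change of 1.83 ± 0.40, rose by DESeq2 (adjusted p = 0.00049) and did not pass edgeR (adjusted p = 0.171), but passed edgeR without vincristine replicate 1 (1.22 ± 0.15, adjusted p = 0.00886). DESeq2 called Cxcr2 and Ccr1 with each of the 6 libraries left out in turn. The paralogue Cxcr1 had 3, 3 and 2 reads in vincristine pools and 0, 2 and 1 in vehicle pools, too few to test.

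Neutrophil markers were also higher in vincristine pools, as were erythroid markers and those of monocytes and macrophages. Of 10 platelet and megakaryocyte markers, 7 were higher by edgeR at an unadjusted p under 0.05 and 1 rose by DESeq2. Those 10 had a median log2 fold change of 1.31. Their sum in vincristine replicate 2 (64.2 CPM) lay below vehicle replicates 1 and 3 (73.7 and 66.2 CPM). All 16 listed neutrophil markers were detected, and their summed level was 8360, 2774 and 3159 CPM in vincristine pools, against 1517, 880 and 1114 CPM in vehicle pools. Of the 16, 13 rose by DESeq2 (2.44% of all genes did). By edgeR 15 were higher at an unadjusted p under 0.05 (8.10% of all), with 0 passing after adjustment. The median log2 fold change was 2.01, against -0.0033 over all genes. Among them Mmp8 and Mmp9, a neutrophil collagenase and a gelatinase gene whose products can cut chemokines, had log2 fold changes of 2.10 ± 0.41 and 1.74 ± 0.36. The part of neutrophil content in the values of Cxcr2 and Ccr1 was not tested.

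Cx3cr1 and Ccr2, receptor genes of monocytes and macrophages, had smaller log2 fold changes than Cxcr2 and Ccr1. Cx3cr1, the fractalkine receptor, was at 51.1, 39.2 and 38.9 CPM in vincristine pools, against 25.1, 22.2 and 30.9 CPM in vehicle pools. Each vincristine pool was above each vehicle pool, and the 3 vincristine pools were closer together than for Cxcr2. Its log2 fold change of 0.72 ± 0.17 passed DESeq2 (adjusted p = 0.0227) and not edgeR (adjusted p = 0.193), and DESeq2 kept the call in 3 of the 6 runs with a library left out, those without vincristine replicate 1, vincristine replicate 3 and vehicle replicate 3. Ccr2, the CCL2 receptor that marks inflammatory monocytes, was at 106, 51.5 and 50.3 CPM in vincristine pools, against 52.2, 46.1 and 42.0 CPM in vehicle pools. Here only vincristine replicate 1 stood clearly higher, while replicates 2 and 3 of vincristine lay below vehicle replicate 1. Ccr2 had a log2 fold change of 0.56 ± 0.30 (edgeR adjusted p = 0.532), and 0.12 ± 0.11 without vincristine replicate 1. The 19 monocyte and macrophage markers in the table were all detected, with a summed level of 2636, 1340 and 1442 CPM in vincristine pools and 1069, 799 and 913 CPM in vehicle pools, and 6 of the 19 rose by DESeq2 while 0 passed edgeR (15 higher at an unadjusted p under 0.05). Their part in these receptor values was not tested.

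**Figure D2:**
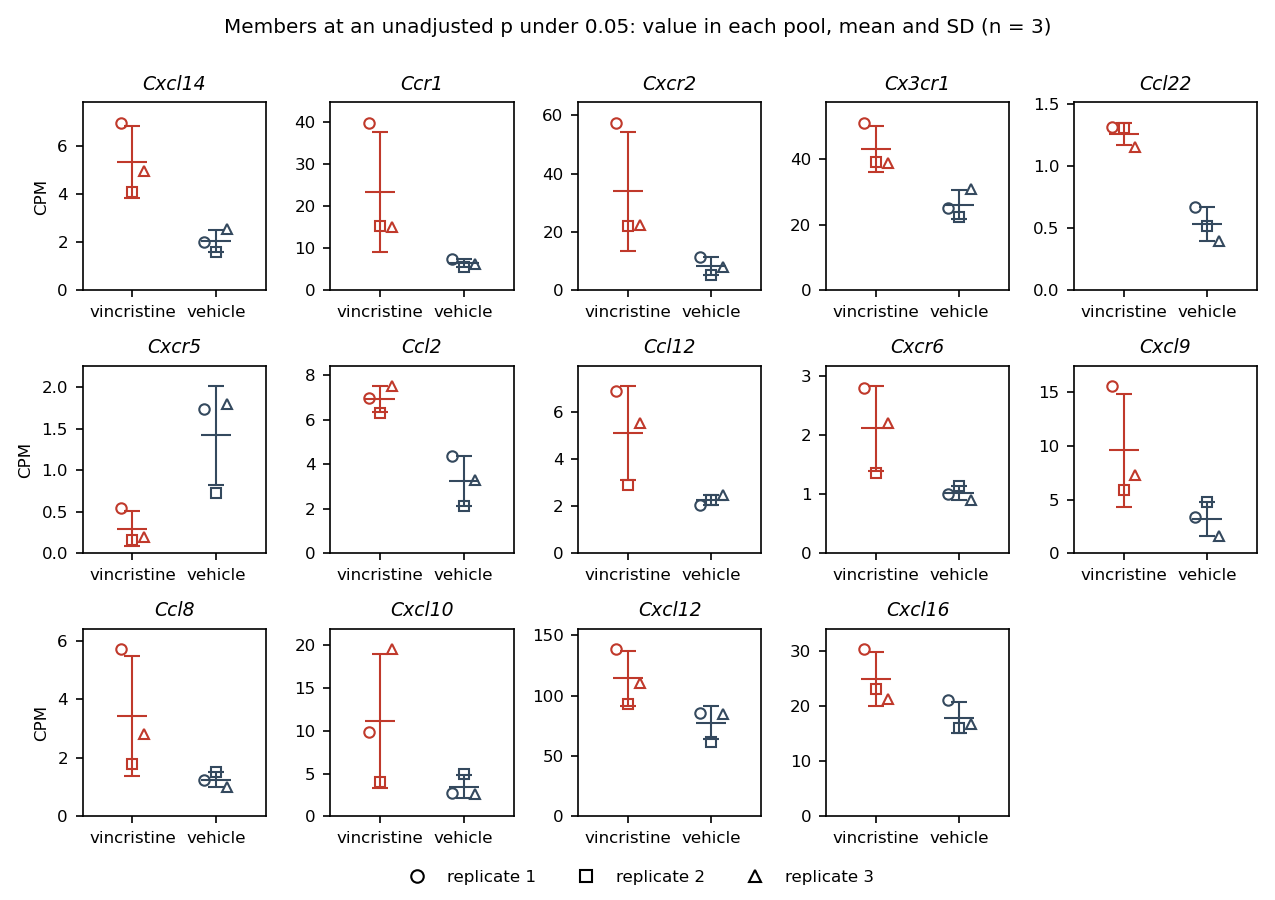
CPM in each pool (symbols mark replicates 1, 2 and 3), with the group mean and SD (n = 3), for 14 of the 15 genes at an unadjusted edgeR p under 0.05; each panel starts at 0. In Cxcr2 and Ccr1 the vincristine pools at 57.5 and 40.0 CPM belong to replicate 1, whereas in Ccl2 the 3 vincristine pools lie between 6.32 and 7.51 CPM.

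Among receptors of lymphocytes, Cxcr5 stood at the other end. Cxcr5, which guides B cells and follicular helper T cells to CXCL13, was at 0.542, 0.157 and 0.193 CPM in vincristine pools, against 1.74, 0.730 and 1.80 CPM in vehicle pools, or 7, 3 and 5 reads against 31, 14 and 36 reads. Every vincristine pool was below every vehicle pool. It fell by 2.38 ± 0.56 on the log2 scale, which DESeq2 called (adjusted p = 0.0194) and edgeR did not (adjusted p = 0.193). Leaving out vincristine replicate 1 gave an edgeR value of -2.96 ± 0.57 (adjusted p = 0.0470), and DESeq2 called Cxcr5 in 2 of 6 runs with a library left out, those without vincristine replicate 1 or vehicle replicate 2. The 14 B-lineage markers were all detected. Their sum is mostly Ebf1, and without it the other 13 summed to 13.1, 6.11 and 7.63 CPM in vincristine pools, against 70.3, 49.6 and 101 CPM in vehicle pools. Of the 12 tested B-lineage markers 8 fell by edgeR (0.0658% of all genes did), and their part in the value of Cxcr5 was not tested.

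Ccr7, the receptor of CCL19 and CCL21 on naive lymphocytes and mature dendritic cells, was at 0.774, 0.522 and 1.04 CPM in vincristine pools, against 1.57, 0.886 and 1.15 CPM in vehicle pools, with overlap (log2 -0.59 ± 0.36). Ccr6, a receptor of B cells and Th17 cells, had 1, 4 and 3 reads in vincristine pools and 2, 9 and 5 in vehicle pools. Cxcr6, the CXCL16 receptor of T and NK cells, was at 2.79, 1.36 and 2.20 CPM in vincristine pools, against 1.01, 1.15 and 0.900 CPM in vehicle pools, without overlap (log2 1.03 ± 0.32, edgeR adjusted p = 0.292). Cxcr3, the receptor of CXCL9 and CXCL10 on activated T cells, was at 2.40, 0.470 and 1.73 CPM in vincristine pools, against 0.952, 0.886 and 0.700 CPM in vehicle pools (log2 0.83 ± 0.54, and 0.44 ± 0.51 without vincristine replicate 1), so vincristine replicate 2 lay below all vehicle pools and the other vincristine pools above them. T and NK markers were also highest in vincristine replicate 1 and lowest in vincristine replicate 2, with sums of 36.5, 11.5 and 18.0 CPM in vincristine pools and 20.1, 13.1 and 13.5 CPM in vehicle pools over 14 genes, all detected. Their part in the Cxcr3 and Cxcr6 values was not tested.

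Cxcr4, the CXCL12 receptor of haematopoietic and many other cells, was at 53.3, 29.9 and 28.5 CPM in vincristine pools, against 27.8, 18.4 and 26.7 CPM in vehicle pools. The pools did not overlap, although vincristine replicate 3 was only just above vehicle replicate 1, and the log2 fold change was 0.61 ± 0.28 (edgeR adjusted p = 0.470) and 0.26 ± 0.17 without vincristine replicate 1. The receptors of low level, Ccr3 of eosinophils, Ccr9 of gut-homing lymphocytes, Ccr10 of skin-homing cells and Xcr1 of cross-presenting dendritic cells, had overlapping groups with log2 fold changes from -0.30 to 0.52 and edgeR adjusted p from 0.678 to 0.967. Ccr4 had 2, 0 and 6 reads in vincristine pools and 0, 2 and 2 in vehicle pools.

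**Figure D3:**
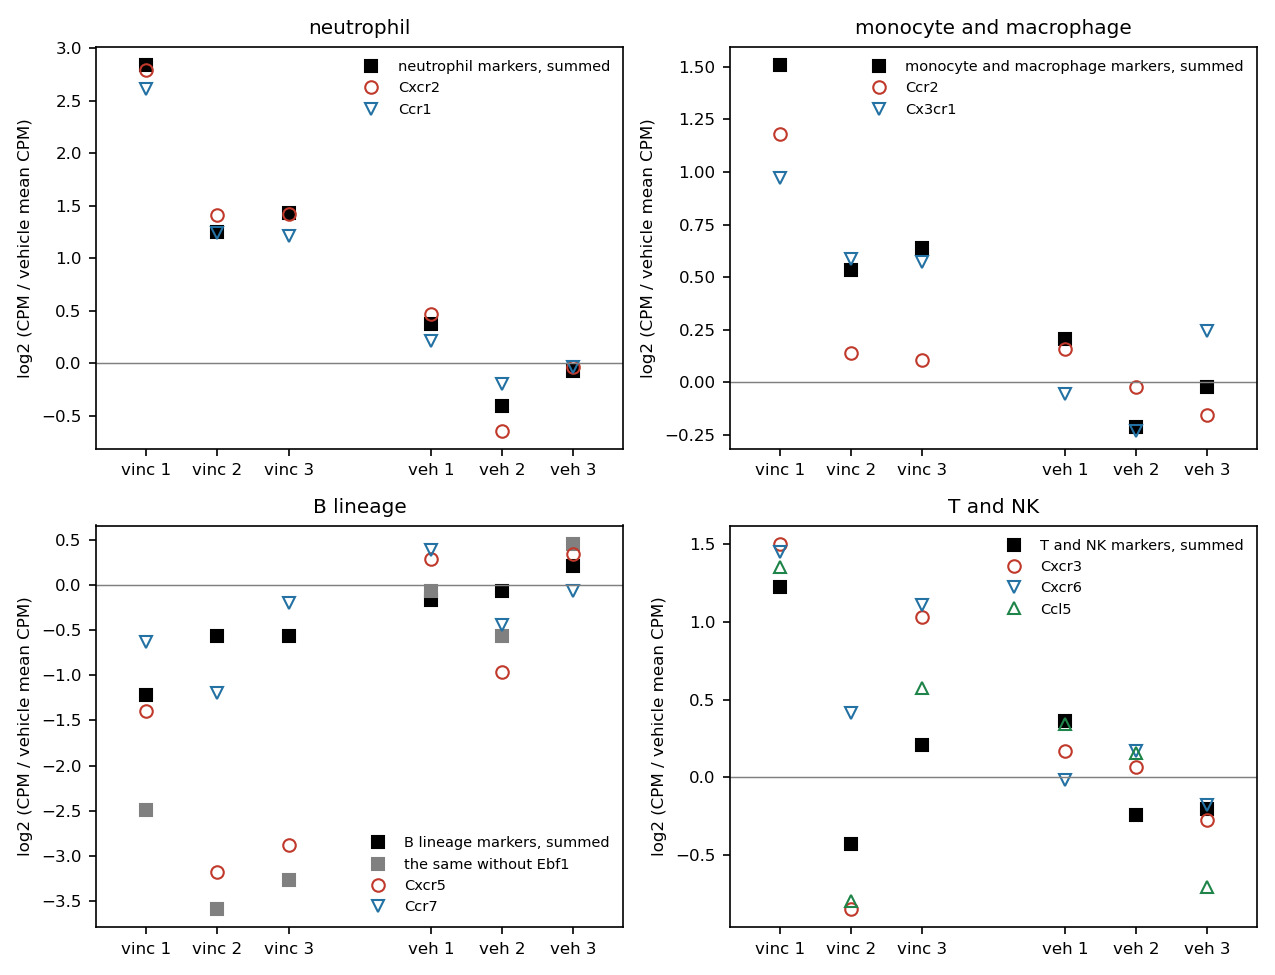
Log2 of CPM over the vehicle mean in each pool for receptor genes and Ccl5 (open symbols) beside the summed level of the marker list of the cell type (filled squares; for B lineage also without Ebf1). Cxcr2, Ccr1 and the neutrophil sum are all highest in vincristine replicate 1 and lowest in vehicle replicate 2. This order is not particular to neutrophils, as the monocyte and macrophage sum has the same highest and lowest pools (2636 and 799 CPM). So does the sum of all 51 genes (801.5 and 339.0 CPM). Cxcr5 is low in the 3 vincristine pools, as is the B-lineage sum.

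Among the CC ligands, the Ccl2 cluster on chromosome 11 held Ccl2, which rose by DESeq2, and neighbours with positive log2 fold changes that did not pass: 5 of its 5 tested genes were positive (49.3% of all genes tested were), 3 of them without overlap between groups (11.5% of all). The cluster of the build GRCm38 spans chr11:82035571-82305690 and holds Ccl2, Ccl7, Ccl11, Ccl12, Ccl8 and Ccl1 in this order. Ccl2, the main attractant of CCR2-positive monocytes, was at 6.97, 6.32 and 7.51 CPM in vincristine pools, against 4.37, 2.14 and 3.30 CPM in vehicle pools, so the 3 vincristine pools were alike and all above vehicle. It rose by 1.09 ± 0.27 on the log2 scale by DESeq2 (adjusted p = 0.0144; the value is edgeR's) and did not pass edgeR (adjusted p = 0.198). Without vincristine replicate 1 the edgeR value was 1.09 ± 0.27, and DESeq2 called Ccl2 in 2 of 6 runs with a library left out, those without vincristine replicate 1 or vehicle replicate 1. Ccl12, another CCR2 ligand of the mouse, was at 6.89, 2.92 and 5.55 CPM in vincristine pools, against 2.07, 2.29 and 2.50 CPM in vehicle pools (log2 1.15 ± 0.33, edgeR adjusted p = 0.251). Ccl8 was at 5.73, 1.77 and 2.81 CPM in vincristine pools, against 1.23, 1.51 and 0.9996 CPM in vehicle pools (log2 1.43 ± 0.45, edgeR adjusted p = 0.308, and 0.89 ± 0.31 without vincristine replicate 1). In both genes the groups did not overlap, and vincristine replicate 2 was the lowest of the vincristine pools. Ccl7, a further monocyte attractant, was at 8.83, 4.23 and 4.55 CPM in vincristine pools, against 4.37, 2.87 and 2.80 CPM in vehicle pools, with overlap at the edge (log2 0.79 ± 0.34, and 0.40 ± 0.24 without vincristine replicate 1). Ccl11 (eotaxin, which attracts eosinophils through CCR3) was at 53.6, 50.9 and 30.8 CPM in vincristine pools, against 50.1, 42.8 and 28.1 CPM in vehicle pools, the groups overlapped and the log2 fold change was 0.16 ± 0.27. Ccl1 had 0, 7 and 12 reads in vincristine pools against 18, 12 and 9 in vehicle pools, below the filter.

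A second cluster, at chr11:83525778-83664683, holds Ccl5, Ccl9, Ccl6, Ccl3 and Ccl4. Ccl6, made by myeloid cells of rodents, was at 54.6, 23.7 and 26.1 CPM in vincristine pools, against 27.7, 11.8 and 20.6 CPM in vehicle pools. Ccl9, a rodent gene of the same kind, was at 28.5, 16.9 and 16.4 CPM in vincristine pools, against 19.1, 10.2 and 11.4 CPM in vehicle pools. Both had overlapping groups with vincristine replicate 1 highest, and log2 fold changes of 0.79 ± 0.40 and 0.59 ± 0.31. Without that pool these were 0.32 ± 0.31 and 0.30 ± 0.25. Ccl5 (RANTES, a product of T cells, NK cells and platelets) was at 4.18, 0.940 and 2.43 CPM in vincristine pools, against 2.07, 1.82 and 0.9996 CPM in vehicle pools, so vincristine replicate 2 was the lowest of all 6 pools (log2 0.59 ± 0.53, edgeR adjusted p = 0.708, and 0.09 ± 0.45 without vincristine replicate 1). Ccl3 had 9, 8 and 14 reads in vincristine pools against 4, 4 and 4 in vehicle pools, and Ccl4 had 11, 9 and 19 against 5, 2 and 4. Both macrophage inflammatory protein genes were under the filter. When every gene with at least 10 reads in all was tested, they were among the 17 of 51 chemokine and receptor genes higher at an unadjusted p under 0.05 (7.51% of 20176 genes tested so), Cxcr5 was the 1 lower (3.17% of all), and 0 of the 51 passed an adjusted p of 0.05 (0.327% of all).

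**Figure D4:**
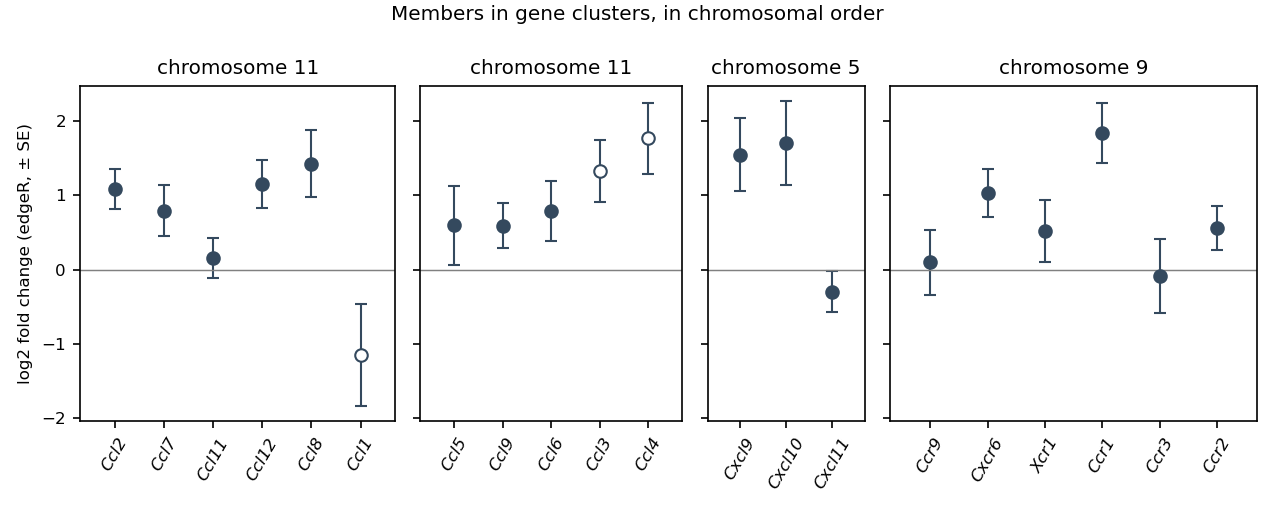
Log2 fold change with SE (edgeR) of genes of 4 clusters, in chromosomal order; open points were under the filter and come from the fit to genes with at least 10 reads in all. Neighbours differ within a cluster: on chromosome 9 Ccr1 is at 1.83 and its neighbour Ccr3 at -0.08.

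Other CC ligands lie outside both clusters of chromosome 11. Ccl22, an attractant of CCR4-positive regulatory and Th2 cells made by dendritic cells and macrophages, was at 1.32, 1.30 and 1.16 CPM in vincristine pools, against 0.672, 0.521 and 0.400 CPM in vehicle pools, or 17, 25 and 30 reads against 12, 10 and 8 reads. The groups did not overlap, and the log2 fold change was 1.24 ± 0.29 (edgeR adjusted p = 0.193, DESeq2 adjusted p = 0.173). Ccl17, with the same receptor, lies near Ccl22 on chromosome 8, with Cx3cl1 between them. It had 11, 14 and 6 reads in vincristine pools and 9, 6 and 4 in vehicle pools. Ccl27a, a keratinocyte-type CCR10 ligand, was at 7.36, 8.30 and 7.59 CPM in vincristine pools, against 9.47, 8.96 and 8.40 CPM in vehicle pools, lower in each vincristine pool by a small amount (log2 -0.20 ± 0.14, edgeR adjusted p = 0.617). Ccl28, a mucosal CCR10 ligand, was at 1.67 ± 0.411 CPM in vincristine and 2.48 ± 0.790 CPM in vehicle (SD, n = 3 each), with overlap. Ccl21a, Ccl24 and Ccl25 also had overlapping groups, with log2 fold changes of 0.11, -0.59 and -0.18, and Ccl19 had 15 reads in vincristine and 18 in vehicle. Reads of Ccl21a and Ccl27a may be lost to near-identical copies, of which Ccl21b, Ccl21c and Ccl27b were listed with 0 reads.

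Cx3cl1 was at 22.4, 12.9 and 11.2 CPM in vincristine pools, against 12.9, 9.74 and 13.7 CPM in vehicle pools. The groups overlapped, vincristine replicate 1 being the highest pool, and the log2 fold change was 0.35 ± 0.28 (edgeR adjusted p = 0.682) and -0.0087 ± 0.17 without vincristine replicate 1. The ligand gene thus had a smaller value than that of its receptor Cx3cr1, though the difference between these genes was not tested. Xcl1, lymphotactin, had 13, 7 and 8 reads in vincristine pools against 4, 5 and 3 in vehicle pools, under the filter.

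Of the CXC ligands, Cxcl14 had the smallest p. Cxcl14 (BRAK, expressed in epithelia and other tissues, with no settled receptor) was at 6.97, 4.07 and 4.97 CPM in vincristine pools, against 2.02, 1.61 and 2.55 CPM in vehicle pools, or 90, 78 and 129 reads against 36, 31 and 51 reads. All vincristine pools were above all vehicle pools, vincristine replicate 1 being the highest. The log2 fold change of 1.36 ± 0.28 passed DESeq2 (adjusted p = 0.00295) and not edgeR (adjusted p = 0.143). Without vincristine replicate 1 it was 1.13 ± 0.24 (edgeR adjusted p = 0.0699), and DESeq2 called Cxcl14 in 4 of 6 runs with a library left out, the exceptions being those without vehicle replicate 1 or 2.

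Cxcl9 and Cxcl10, interferon-induced ligands of CXCR3, lie side by side with Cxcl11 at chr5:92321347-92365485. Cxcl9 was at 15.6, 5.85 and 7.25 CPM in vincristine pools, against 3.36, 4.74 and 1.599 CPM in vehicle pools (log2 1.55 ± 0.49, edgeR adjusted p = 0.308), without overlap. Cxcl10 was at 9.83, 4.07 and 19.6 CPM in vincristine pools, against 2.69, 5.002 and 2.65 CPM in vehicle pools (log2 1.70 ± 0.56, edgeR adjusted p = 0.326). Here vincristine replicate 3 was highest, not replicate 1, and vincristine replicate 2 lay below vehicle replicate 2. Without vincristine replicate 3 the log2 fold change of Cxcl10 was 0.9978, and without vincristine replicate 1 that of Cxcl9 was 1.02 ± 0.37. DESeq2 called neither with all libraries (adjusted p = 0.0505 and 0.054), but called Cxcl9 in 3 and Cxcl10 in 2 of the 6 runs with a library left out. Cxcl11, annotated as a polymorphic pseudogene in this reference, was at 1.43 ± 0.311 CPM in vincristine and 1.72 ± 0.317 CPM in vehicle (SD, n = 3 each), with overlap.

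The 250 bases before the RefSeq start (GRCm38.p6) of Cxcl10, its neighbour Cxcl9 and Cxcl14, the CXC ligands with the largest fold changes or the smallest p, are shown 5′ to 3′ in the direction of transcription, with capitals marking the motifs searched on both strands. Cxcl10 comes from chr5:92348890-92349139, Cxcl9 from chr5:92328080-92328329 and Cxcl14 from chr13:56296552-56296801, all on the minus strand.
Cxcl10: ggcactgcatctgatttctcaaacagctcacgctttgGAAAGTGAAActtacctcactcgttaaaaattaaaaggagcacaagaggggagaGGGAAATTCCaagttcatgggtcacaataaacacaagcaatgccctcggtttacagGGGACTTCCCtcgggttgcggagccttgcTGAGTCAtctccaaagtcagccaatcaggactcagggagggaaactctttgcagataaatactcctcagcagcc
Cxcl9: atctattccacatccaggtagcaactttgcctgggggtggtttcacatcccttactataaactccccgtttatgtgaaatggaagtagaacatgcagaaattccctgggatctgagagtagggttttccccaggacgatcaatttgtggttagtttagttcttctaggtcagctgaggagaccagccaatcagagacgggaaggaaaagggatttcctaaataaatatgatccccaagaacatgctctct
Cxcl14: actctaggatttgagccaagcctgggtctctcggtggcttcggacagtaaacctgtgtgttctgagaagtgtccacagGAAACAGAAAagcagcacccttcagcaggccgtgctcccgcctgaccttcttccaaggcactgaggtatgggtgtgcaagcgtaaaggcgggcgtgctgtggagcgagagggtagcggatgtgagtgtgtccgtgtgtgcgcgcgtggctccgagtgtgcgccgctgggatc
The motifs were the NF-κB consensus, the interferon-stimulated response element (GAAA, any 2 bases, GAAA), the AP-1 motif TGANTCA and the PU.1 motif GAGGAAGT, and no matches overlapped in the 3 windows shown. Cxcl10 held the interferon element 213 bases before the start, NF-κB matches at 159 and 103 and an AP-1 match at 74. Cxcl14 held the interferon element at 172, and the window of Cxcl9 held none of these letters. Among 38 of the 51 genes with a window, 7 held an NF-κB match (4.46% of 27025 genes did), 3 the interferon element (3.46%), 5 AP-1 (7.82%) and 1 PU.1 (2.79%). Cxcl1 and Cxcl2 also held overlapping NF-κB matches, and had few reads here.

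Cxcl12 (SDF-1, the homeostatic ligand of CXCR4 made by stromal and endothelial cells) was at 139, 92.9 and 111 CPM in vincristine pools, against 85.8, 61.9 and 84.7 CPM in vehicle pools. The groups did not overlap, and the log2 fold change was 0.56 ± 0.19 (edgeR adjusted p = 0.346) and 0.39 ± 0.15 without vincristine replicate 1. Cxcl16, a transmembrane chemokine and scavenger receptor of macrophages, was at 30.5, 23.2 and 21.3 CPM in vincristine pools, against 21.1, 16.0 and 16.8 CPM in vehicle pools, with vincristine replicate 3 only just above vehicle replicate 1 (log2 0.47 ± 0.18, edgeR adjusted p = 0.380). Among ligands of CXCR2, Cxcl1, Cxcl2 and Cxcl5 had few reads, unlike the receptor. This does not extend to the platelet chemokine gene Ppbp, whose symbol does not follow the nomenclature and which is described below. Ppbp had 1199, 337 and 1033 reads in vincristine pools and 422, 218 and 439 in vehicle pools, with overlap in CPM. Cxcl1 had 7, 12 and 8 reads in vincristine pools and 12, 9 and 11 in vehicle pools. Cxcl2 had 3, 7 and 3 against 0, 1 and 2, and Cxcl5 had 17, 9 and 11 against 6, 0 and 10. Cxcl13, the CXCR5 ligand, had 0, 5 and 7 reads against 0, 1 and 1.

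The atypical receptors had overlapping groups. Ackr3, which takes up CXCL12, was at 35.6, 28.2 and 17.6 CPM in vincristine pools, against 39.7, 25.7 and 27.9 CPM in vehicle pools, the lowest pool being vincristine replicate 3 and the highest vehicle replicate 1 (log2 -0.20 ± 0.28, edgeR adjusted p = 0.815). Ackr2, a decoy for inflammatory CC chemokines, and Ackr4, which takes up CCL19 and CCL21, had low levels in both groups, with log2 fold changes of 0.49 ± 0.41 and 0.62 ± 0.65. Ackr1 is listed under its older symbol Darc and so is not among the 51. It was at 22.4, 35.4 and 45.8 CPM in vincristine pools and 22.7, 39.6 and 35.8 CPM in vehicle pools.

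Set side by side, ligands and receptors of the same axis had the following values. The axis of Cxcl12 had log2 fold changes of 0.56 for the ligand, 0.61 for Cxcr4 and -0.20 for Ackr3. For CCR2, the ligands Ccl2, Ccl7 and Ccl12 were at 1.09, 0.79 and 1.15, and the receptor at 0.56. On the CXCR3 axis Cxcl9, Cxcl10, Cxcl11 and the receptor were at 1.55, 1.70, -0.29 and 0.83. Cxcl16 and Cxcr6 were at 0.47 and 1.03, and Ccl11, Ccl24 and Ccr3 at 0.16, -0.59 and -0.08. Differences between members of an axis were not tested.

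Per kilobase of exon, the order of levels was led by the same 4 genes in both groups. Ccl11 had the highest level, 41.7 ± 11.5 CPM per kb in vincristine and 37.3 ± 10.3 CPM per kb in vehicle (SD, n = 3 each). Next came Cxcr4 (20.6 ± 7.70 and 13.5 ± 2.83 CPM per kb), Ccl6 (19.4 ± 9.57 and 11.2 ± 4.42) and Cxcl12 (13.95 ± 2.83 and 9.47 ± 1.65). In vehicle, Cxcr4 differed from Ccl6, Ccl6 from Cxcl12 and Cxcl12 from the fifth gene, Ackr3, by less than the larger SD. Cxcr2 held place 5 of 51 in vincristine and place 16 in vehicle, and Ccr1 places 9 and 18. Exon lengths are the union of all GENCODE exons and may exceed the transcript present.

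**Figure D5:**
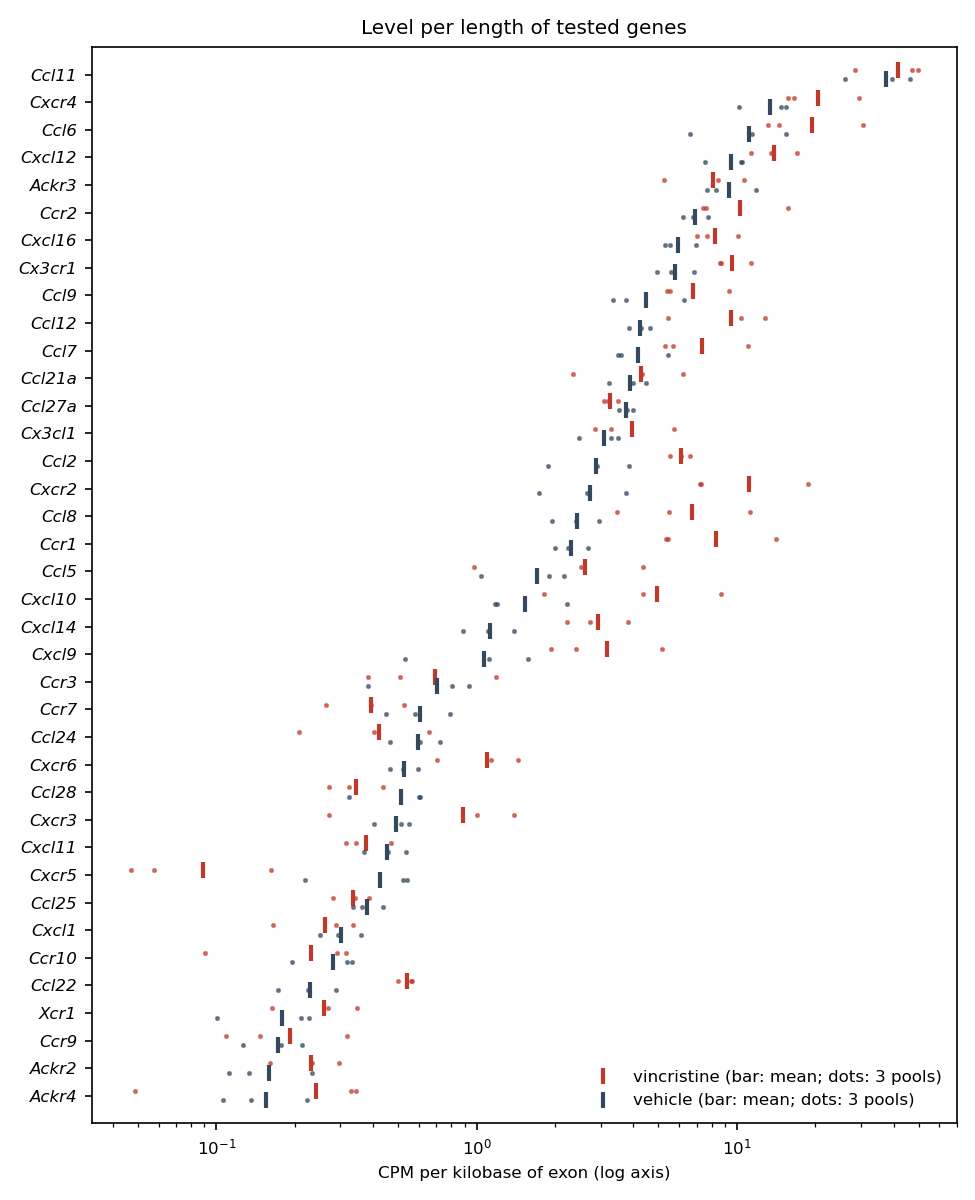
CPM per kilobase of exon on a log axis for 38 of the 39 tested genes, in the order of the vehicle means, with vincristine (upper, red) and vehicle (lower, dark) means as bars and the 3 pools as dots. Ccl11 is highest at 41.7 and 37.3 CPM per kb, and the bars of Cxcr2 and Ccr1 are set furthest apart among the genes above 1 CPM per kb in vehicle.

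Genes of the wider pathway were read from lists. Of 13 tested chemokine-related genes under other names, 0 passed edgeR or DESeq2, and 1 was higher at an unadjusted p under 0.05, the platelet chemokine gene Ppbp at 1.39 ± 0.58 on the log2 scale. Pf4, the other platelet chemokine gene, was at 0.77 ± 0.35, beside 10 platelet markers with sums of 231, 64.2 and 113 CPM in vincristine pools and 73.7, 45.1 and 66.2 CPM in vehicle pools. Of 42 receptor signalling genes 0 passed edgeR (before adjustment, 14 were higher and 3 lower at p under 0.05), while 4 rose and 1 fell by DESeq2. They were Plcb2 (1.28 ± 0.32), Fgr (1.51 ± 0.39) and Pik3cg (0.92 ± 0.24), which act downstream of leukocyte receptors, the leukocyte GTPase gene Rac2, and Rgs10, a G-protein regulator that fell by 0.78 on the log2 scale (DESeq2 adjusted p = 0.0334). Of 14 tested proteases that cut or shed chemokines 0 passed edgeR (6 higher at an unadjusted p under 0.05) and 2 rose by DESeq2, Mmp8 and Mmp9. In the list of NF-κB and cytokine inducers 2 of 33 rose by edgeR, the injury-induced transcription factor gene Atf3 (log2 4.83 ± 0.33, edgeR adjusted p = 0.00732) and the cytokine feedback gene Socs3 (24.4 ± 1.38 CPM in vincristine and 12.2 ± 0.793 CPM in vehicle, log2 0.99 ± 0.11, edgeR adjusted p = 0.0242), and 7 by DESeq2, among them Cebpd (1.01 ± 0.18). Of 17 genes for adhesion of leukocytes to vessels 0 passed edgeR (5 higher at an unadjusted p under 0.05) and 4 rose by DESeq2, the integrin genes Itgam, Itgal and Itgb2 and the selectin ligand gene Selplg, all expressed by leukocytes. Rac2, Rgs10 and Selplg were named after their values were seen.

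Exons of another gene on the opposite strand overlap Cx3cr1, Cxcl10, Cxcl11, Cxcl16, Cxcr5, Ccl25, Ccl27a, Ccr9, Ackr4 and Xcl1 in GENCODE M21, and Ccr9 is also overlapped on its own strand. Because no source used here states the strand setting behind the counts, values of these genes are less certain. A gene with 0 reads is not shown to be absent: 3 reads, the limit that a count of 0 allows, correspond to 0.242 CPM in vincristine replicate 1 and 0.114 CPM in vincristine replicate 3, counting error only.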

How the data were processed

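Read counts per gene were deposited by the authors for 6 libraries of stranded total RNA, sequenced as single-end reads of 75 bases, and were used as deposited. Per the submitters' processing notes, the reads were handled by STAR, SAMtools and HTSeq on mm10 (GRCm38). For the versions, the annotation and the strand setting, no source used here gives a value. Rows that name no gene were left out: reads without a feature were 14.8% to 24.8%, ambiguous ones 0.253% to 0.331%, and reads not mapped uniquely 31.1% to 40.5%, as shares of each table. 

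Members were the symbols of the chemokine nomenclature with at least 10 reads summed over the libraries. The members, the gene lists and the rule for named genes were chosen with earlier results of these data known. That rule gave pool values to genes at an unadjusted edgeR p under 0.05 or called by DESeq2, to 10 genes of known axes and to the 3 highest per length, and up to 3 genes of each pathway list by smallest p. Vincristine was compared with vehicle over all genes in R 4.3.3 by edgeR 4.0.16 (filterByExpr, minimum count 10, TMM, quasi-likelihood test, Benjamini-Hochberg adjustment, threshold 0.05), with 3 pools per group and 4 residual degrees of freedom. DESeq2 1.42.0 and limma 3.58.1 (voom, with and without sample weights) were alternatives. In counts simulated from these libraries, 50 genes were changed at each fold. From these edgeR recovered 31 of those changed 2-fold and 46 of those changed 4-fold with 1 false call in all. DESeq2 recovered 38 and 49 with 33 false calls. The simulated counts held no outlying library like vincristine replicate 1, so these numbers may not carry over to the real data. Replicates of a group differed by more than sampling noise, so none was counted as a repeat of another. Nothing says that the pools are independent beyond holding different animals, so p-values measure the spread between these pools. The counts and medians include 1 gene that is not reported here. Intervals and floors cover counting error only. Gene positions are from GENCODE M21 and promoter windows from RefSeq, both on GRCm38.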

Additional observations from a re-analysis of the deposited data

How the results depend on the processing

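In the simulated counts edgeR recovered 6 of 50 genes changed 1.5-fold and DESeq2 12, and DESeq2 also made 33 false calls against 1 by edgeR. A call by DESeq2 alone is therefore read as less firm. The simulation drew independent counts with the dispersions estimated by edgeR and no outlying library. Vincristine replicate 1 stood apart in the real data (sample weight 0.194), so recovery and false calls there may differ. Against 0 members called by edgeR, DESeq2 called 6, voom with sample weights 7, and edgeR with a replicate block 2 (Ccr1 and Cxcr2). Leaving out 1 library gave 0 to 3 members with edgeR and 3 to 8 with DESeq2. Over all genes edgeR called 60, against 551 by DESeq2, 476 with sample weights, 99 with no filter, 261 with the replicate block and 125 at a threshold of 0.1. Leaving out 1 library gave 206 to 600 genes with DESeq2 and 0 to 346 with edgeR. With edgeR this was 346 without vincristine replicate 1, 6 and 18 without vincristine replicate 2 or 3, and 0 without each vehicle library (1462, 1063 and 1409 genes at an unadjusted p under 0.05). Deviations of same-numbered pools from their group means correlated at 0.428, 0.248 and -0.0944. Vincristine replicates 1 and 2 correlated best with the vehicle pool of their own number, and vincristine replicate 3 with vehicle replicate 2 (0.491). With 3 pools per group these values cannot decide whether same-numbered pools share a batch, and the labels link them by number only. The numbers are those of the labels, and the table of vehicle replicate 3 is numbered 4, so the third pair may not be one. The sign turned with sample weights for Ackr4 (-0.57), Ccl5 (-0.17), Ccl21a (-0.0758), Ccr9 (-0.25) and Cxcr3 (-0.13), and with voom for Ccl21a (-0.0572) and Ccr9 (-0.0674). Leaving out 1 library turned it for Ackr3 (-0.45 to 0.0397), Ccl11 (-0.0486 to 0.37), Ccl21a (-0.25 to 0.43), Ccr10 (-0.59 to 0.0832), Ccr3 (-0.65 to 0.23), Ccr9 (-0.43 to 0.41), Cx3cl1 (-0.0087 to 0.54) and Cxcl1 (-0.48 to 0.0625). The cause was not tested. For single genes, 619 values kept direction and side of the threshold, 18 newly passed it and 20 turned sign. Other scalings moved the median gene by at most 0.0161 (log2). DESeq2 runs that leave out a library, added after seeing the data, called 576 and 544 genes without vincristine replicate 2 or 3, and 316, 206 and 319 without vehicle replicate 1, 2 or 3. Of the members they called 5 without vincristine replicate 3 or vehicle replicate 2 and 4 without vehicle replicate 3.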
